A study of Mus musculus with 8 samples.

Results

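The genes of the cytosolic ribosomal proteins were compared between RPE eyecups of Bbs8-/- and Bbs8+/+ mice. Members were the protein-coding genes whose symbols name a protein of the large subunit (Rpl and a number, 43 genes), of the small subunit (Rps and a number, 29 genes), of the ribosomal stalk (Rplp0, Rplp1 and Rplp2), or Rpsa, which is also a small subunit protein. These were 76 of the 31053 gene identifiers in each library. Ribosomal proteins and paralogs with other symbols, such as Fau, Rack1 and Rps3a1, fall outside this rule and are described separately.

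The retinal pigment epithelium (RPE) is the pigmented layer that supports the photoreceptors, and Bbs8, whose symbol in the annotation is Ttc8, belongs to the BBSome, a complex that sorts membrane proteins into and out of cilia. RNA came from eyecups of mice of the C57/Bl6 strain at postnatal day 11 (P11), from which cornea, lens, retina and optic nerve had been removed. There were 4 libraries of Bbs8+/+ (wild type) and 4 of Bbs8-/- (knockout), which the labels call biological replicates, and no treatment was given. The knockout is global, so every tissue left in the eyecup lacked Bbs8, and an eyecup still holds choroid and sclera beside the RPE. By the study's methods, mutants and controls were littermates and 1 animal counted as 1 biological replicate, while the labels give no sex and no number of animals for a library.

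A ribosome is built from ribosomal RNA and one copy of most ribosomal proteins, the stalk proteins P1 and P2 being the exception with several copies, and a surplus of a single protein is usually degraded. The mRNAs of ribosomal proteins begin with a run of pyrimidines, the 5′ terminal oligopyrimidine (TOP) tract, through which the mTORC1 pathway and the binding protein Larp1 set their translation together. They are short and abundant, and they have left many processed pseudogenes in mammalian genomes, which makes reads from them difficult to place.

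Total gene counts per library ranged from 1636725 to 2884983, so that 3 counts, taken as the floor, stood for 1.04 to 1.83 CPM (reads of a gene relative to all gene counts of its library). The targeted gene was counted at 18.6 CPM on average in Bbs8+/+ and 4.97 CPM in Bbs8-/-, with a log2 fold change of -1.95 ± 0.317 (SE, edgeR FDR 2.75e-06), and its libraries did not overlap. Of the RPE markers, Rpe65 was at 2002 and 1827 CPM, while Best1 was near the floor (0.741 and 2.18 CPM). All differences below are Bbs8-/- relative to Bbs8+/+, all CPM are TMM-normalized, and all FDR values come from the quasi-likelihood test of edgeR over 13813 genes. Since whole eyecups were sequenced, fewer cells of a type and less RNA per cell cannot be told apart.

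Members took a larger share of the counts in every Bbs8-/- library. The share was 1.87%, 1.90%, 1.85% and 1.94% in the Bbs8+/+ libraries (replicates 1 to 4, the order used for all single values), and 2.04%, 2.19%, 2.13% and 2.07% in the Bbs8-/- libraries. The groups did not overlap. Summed over all members, Bbs8+/+ libraries held 18900 ± 502 CPM and Bbs8-/- libraries 21179 ± 709 CPM (mean ± SD with n = 4, as in all later pairs of means), a ratio of 1.12. Without Rplp1, Rpl11 and Rpl29, the genes with the largest fold changes, the sums were 18006 ± 452 and 19647 ± 672 CPM and the groups did not overlap. Without all 13 members that passed the test for single genes they were 14809 ± 421 and 15721 ± 610 CPM with overlap, a gap that leaving out genes by their difference makes smaller by construction. The 30 small subunit genes summed to 8921 ± 351 and 9848 ± 336 CPM, and the 43 large subunit genes to 8411 ± 91.5 and 9162 ± 352 CPM. The stalk genes summed to 1568 ± 84.7 and 2168 ± 37.4 CPM, a ratio of 1.38 against 1.10 and 1.09. This rests on Rplp1, without which the stalk genes summed to 768 ± 35.2 and 828 ± 5.93 CPM (ratio 1.08).

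A share also depends on the other genes of the library. The 13 mitochondrially encoded genes held 3.59% to 3.82% of the counts in Bbs8+/+ and 3.19% to 3.33% in Bbs8-/-, without overlap. Gm42418, the most counted gene, held 15.2% to 17.3% and 16.6% to 18.3%, with overlap (log2 fold change 0.08, edgeR FDR 0.0103). Without these genes in the fit, 12 members were higher and 1 was lower, with a median log2 fold change of 0.10. Their part in the shares of the members was not tested.

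**Figure D1:**
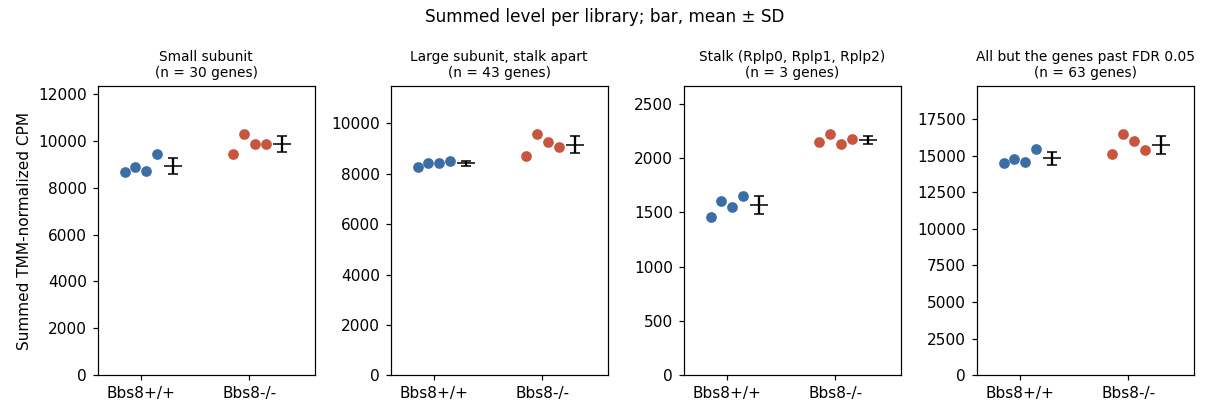
Summed TMM-normalized CPM of small subunit, large subunit and stalk genes and of the 63 members not past FDR 0.05, with 1 point per library and the mean ± SD (n = 4 per genotype). The stalk panel shows the widest gap between genotypes, from at most 1652 CPM in Bbs8+/+ to at least 2130 CPM in Bbs8-/-, mostly through Rplp1, while the groups overlap for the 63 genes, which were chosen by their test result in these libraries.

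All 76 members passed the filter on low counts and were tested. Of these, 12 were higher and 1 was lower in Bbs8-/- at FDR 0.05, that is 5 small subunit, 6 large subunit and 1 stalk gene higher and 1 large subunit gene lower. Across all tested genes the corresponding shares were 1.1% higher and 1.14% lower, or 2.24% in either direction. The median log2 fold change of the members was 0.10, against -0.0041 over all tested genes, and 55 of the 76 members had a positive value. At an unadjusted p under 0.05 there were 31 members higher and 6 lower, against 6.38% and 6.6% of all tested genes. All 4 Bbs8-/- libraries lay above all 4 Bbs8+/+ libraries for 17 members (3.62% of all tested genes) and below them for 1 member (3.76% of all tested genes). Members also varied less between libraries of 1 genotype than other genes. The SD was 7.38% of the mean at the median in Bbs8+/+ and 8.35% in Bbs8-/-. For 7940 other tested genes within the members' range of mean CPM it was 13.2% in both. A smaller spread makes calls and separated groups easier to reach, so these shares do not compare sizes of differences.

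**Figure D2:**
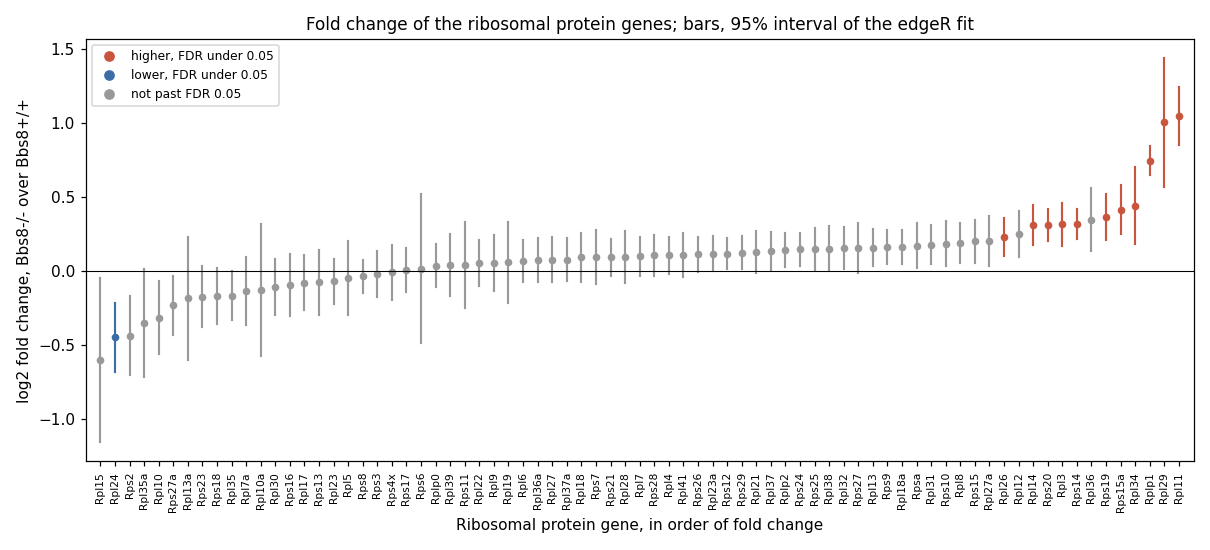
Log2 fold change of the ribosomal protein genes, all but 1 of the 76 (y axis, Bbs8-/- over Bbs8+/+), in order of size along the x axis, with the 95% interval of the edgeR fit. Most members lie between 0 and 0.25, Rpl11, Rpl29 and Rplp1 stand above the others, and Rpl24 is the 1 gene below 0 past FDR 0.05.

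The stalk is the flexible arm that recruits translation factors to the large subunit, with P0 as its base and pairs of P1 and P2 attached to it. Rplp1, the gene of P1 (chromosome 9, 61913284 to 61914542, GRCm38), was counted at 722, 820, 811 and 846 CPM in Bbs8+/+ and at 1315, 1391, 1305 and 1349 CPM in Bbs8-/-. Every Bbs8-/- library was far above every Bbs8+/+ library, with a log2 fold change of 0.74 ± 0.0496 (SE, edgeR FDR 6.49e-27). Rplp2, the gene of P2, was counted at 489 to 539 CPM in Bbs8+/+ and 560 to 606 CPM in Bbs8-/-. These groups did not overlap either, but the log2 fold change of 0.14 (95% interval 0.03 to 0.25) did not pass the test (FDR 0.232). Rplp0, the gene of the base P0, was at 247 ± 20.7 and 254 ± 23.7 CPM, with overlapping groups and a log2 fold change of 0.03 (95% interval -0.11 to 0.18). The interval of Rplp1, from 0.65 to 0.84, did not meet those of its stalk partners.

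Rpl11 showed the largest fold change of the members. With Rpl5 and 5S ribosomal RNA its protein forms the 5S particle of the large subunit, which outside the ribosome binds Mdm2, the ubiquitin ligase of p53. Rpl11 (chromosome 4, 136028265 to 136053428) was at 63.9, 92.1, 73.4 and 86.7 CPM in Bbs8+/+ and at 149, 156, 184 and 165 CPM in Bbs8-/-. The groups were well apart, with a log2 fold change of 1.05 ± 0.0998 (edgeR FDR 4.43e-16), a 2.07-fold difference. Rpl5, named here as its partner and not by rule, was at 71.1 ± 11.3 and 68.9 ± 10.8 CPM (log2 fold change -0.05, 95% interval -0.30 to 0.20).

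Rpl29 had nearly the same fold change as Rpl11 but rests on far fewer counts. It (chromosome 9, 106429454 to 106431568) was counted at 30, 39, 37 and 32 reads in Bbs8+/+ and at 35, 62, 65 and 62 reads in Bbs8-/-, or 12.9, 15.4, 17.3 and 11.2 CPM against 21.3, 32.4, 29.9 and 29.0 CPM. Replicate 1 was the lowest of the Bbs8-/- libraries and was still above all Bbs8+/+ libraries. The log2 fold change was 1.00 ± 0.219 (edgeR FDR 0.00136).

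The other large subunit genes that were higher changed less. Rpl3, whose protein reaches towards the peptidyl transferase centre, rose from 231 ± 26.3 to 287 ± 11.2 CPM, and Rpl14 from 264 ± 7.22 to 328 ± 11.9 CPM, both with a log2 fold change of 0.31 (FDR 0.00338 and 0.00142). Rpl26, whose protein lies beside the exit tunnel, rose from 336 ± 21.1 to 393 ± 15.9 CPM (log2 fold change 0.23, FDR 0.0292). Rpl34 was at 45.7, 58.7, 49.6 and 71.3 CPM in Bbs8+/+ and 66.8, 98.3, 65.2 and 77.6 CPM in Bbs8-/-, and it was the 1 gene of the 12 whose groups overlapped. Its log2 fold change was 0.44 ± 0.130, close to the threshold (FDR 0.0461). The call for Rpl34 was lost without Bbs8+/+ replicate 1, 2 or 3 or Bbs8-/- replicate 2 or 4, by DESeq2, by library totals and after thinning, with FDR values up to 0.365. That for Rpl26 was lost without Bbs8+/+ replicate 2 or 4 or Bbs8-/- replicate 2, 3 or 4, with the replicate block and after thinning, with FDR values up to 0.140.

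On the small subunit 5 genes were higher. Rps14, a platform protein near the site where mRNA leaves, was among the most counted members, at 859, 874, 926 and 933 CPM in Bbs8+/+ and 1013, 1206, 1043 and 1211 CPM in Bbs8-/-. Rps20, a protein of the subunit head, was at 631, 644, 624 and 650 CPM in Bbs8+/+ and 770, 756, 758 and 881 CPM in Bbs8-/-. Both were separated in all libraries, with log2 fold changes of 0.32 ± 0.0512 (edgeR FDR 2.48e-06) and 0.31 ± 0.0544 (edgeR FDR 1.64e-05). Rps15a rose from 161 CPM (143 to 183) to 214 CPM (193 to 236) (log2 fold change 0.41, FDR 0.000312). Rps19, the gene most often mutated in Diamond-Blackfan anaemia, rose from 177 ± 6.35 to 228 ± 17.2 CPM (0.36, FDR 0.00106). For none of the 5 did the genotypes overlap. Rpsa, which has also been described as a laminin receptor precursor, was at 202 ± 14.9 and 227 ± 9.29 CPM without overlap, but its log2 fold change of 0.17 did not pass the test (FDR 0.317).

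**Figure D3:**
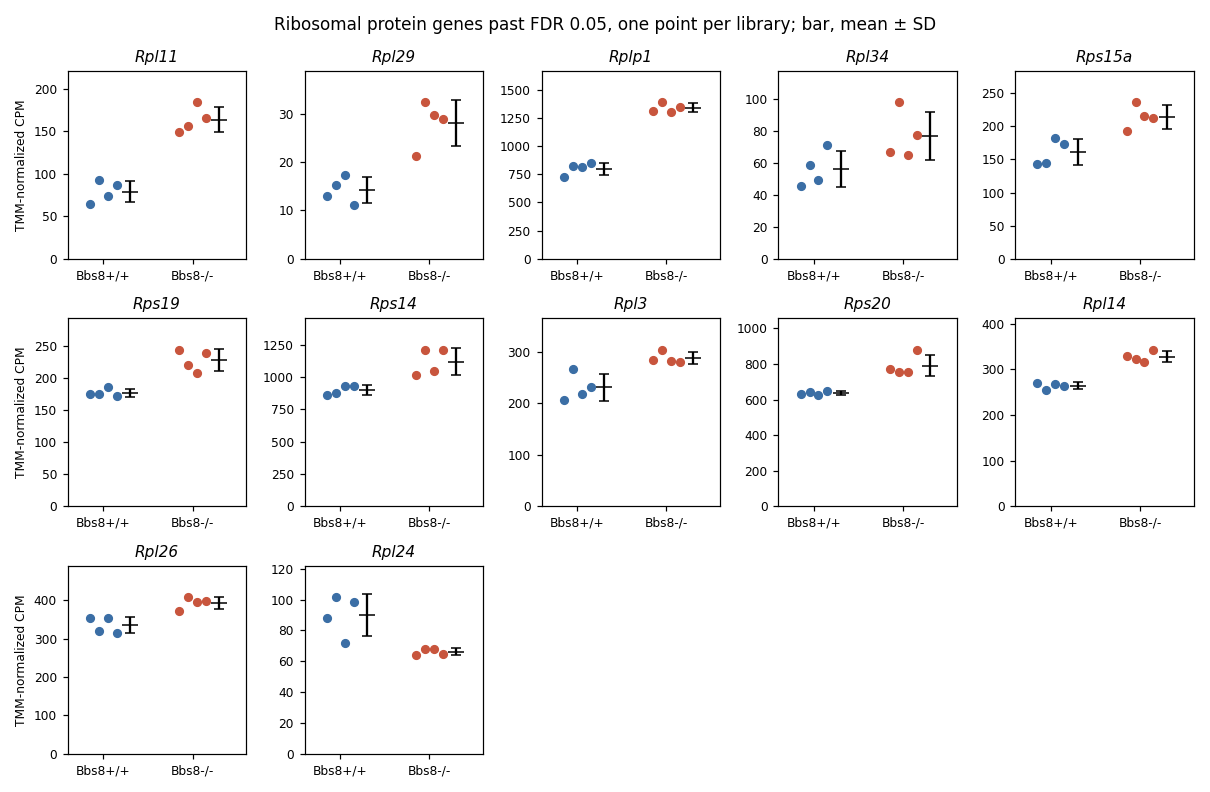
TMM-normalized CPM of 12 of the 13 ribosomal protein genes past FDR 0.05 in each library (points), with mean ± SD (n = 4 per genotype); each panel has its own y axis from 0. Rplp1 and Rpl11 show the clearest separation, Rpl34 overlaps between genotypes, and Rpl24 is the 1 gene that is lower in Bbs8-/-.

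Rpl24, whose protein bridges both subunits, was the member that fell. It (chromosome 16, 55966275 to 55971435) was at 88.0, 102, 71.6 and 98.6 CPM in Bbs8+/+ and at 63.8, 68.0, 68.0 and 64.5 CPM in Bbs8-/-. The lowest Bbs8+/+ library, replicate 3, was only just above the highest Bbs8-/- library, and the log2 fold change was -0.45 ± 0.118 (edgeR FDR 0.0149). The call was lost when any of Bbs8+/+ replicate 2, Bbs8+/+ replicate 4, Bbs8-/- replicate 1 or Bbs8-/- replicate 4 was left out, with FDR values up to 0.124.

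Of the 5 members with the lowest log2 fold changes, Rpl24 alone passed. Rpl15 had the lowest log2 fold change, -0.60 with a 95% interval from -1.16 to -0.05, and an FDR of 0.328. It was also the least counted member, with 10 to 45 reads a library. Rps2, whose protein lies at the mRNA entry, followed Rpl24 with -0.44 (70.4 ± 11.8 and 51.9 ± 12.9 CPM, FDR 0.0637) and passed in 5 of 18 alternative settings. Rpl35a was at -0.35 (34.5 ± 6.49 and 27.3 ± 6.44 CPM, FDR 0.403) and Rpl10 at -0.32 (77.2 ± 14.5 and 62.4 ± 8.06 CPM, FDR 0.219). With 1 library left out the log2 fold change ranged from -0.88 to -0.38 for Rpl15, from -0.60 to -0.32 for Rps2, from -0.49 to -0.21 for Rpl35a and from -0.41 to -0.19 for Rpl10. Rpl10, whose protein joins the large subunit late in its assembly, is on the X chromosome.

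None of the 4 X-linked members passed the test. Rpl36a was at 229 ± 29.3 and 241 ± 7.67 CPM, Rpl39 at 96.0 ± 9.46 and 98.4 ± 11.8 CPM, and Rps4x at 127 ± 9.28 and 125 ± 8.40 CPM. Their log2 fold changes were 0.07, 0.04 and -0.01, and with single libraries left out the first ranged from 0.015 to 0.16 and the last 2 changed sign. Xist, which is made from the inactive X chromosome of females, was at 641 to 747 CPM in Bbs8+/+ and 571 to 626 CPM in Bbs8-/-. Together, 4 genes of the Y chromosome (Eif2s3y, Ddx3y, Kdm5d and Uty) were at 59.1 to 65.0 and 108 to 120 CPM, so both kinds of transcript were present in each library. The labels do not say whether a library pools animals of both sexes, so that n counts libraries and may not count animals. If libraries pool or share animals, the SE, intervals and FDR values of all members may not measure the spread between animals. Neither the Y-linked sum nor Xist overlapped between genotypes, so sex mix and genotype cannot be told apart for any member. The part of this difference in the values of the members, X-linked or not, was not tested.

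The most counted members by CPM were Rplp1, Rps14, Rps12, Rps20 and Rps29. Per kilobase of the principal transcript, the mean over all 8 libraries was 2144 CPM for Rplp1, 1689 for Rps14, 1575 for Rps29 and 1240 for Rps12, but 193 for Rps20, whose annotated transcript is 3706 bases long. At the other end were Rpl15 (6.96), Rps6 (18.2), Rpl13a (22.2), Rpl10a (28.4) and Rpl29 (28.9), which were chosen as the lowest after their values were seen. Reads of 3′ libraries lie near the transcript end, so counts need not scale with transcript length. Values per kilobase therefore also reflect the annotated length and are no measure of level by themselves. Rps12 was at 695 ± 24.0 and 753 ± 57.8 CPM and Rps29 at 588 ± 41.8 and 641 ± 32.7 CPM in Bbs8+/+ and Bbs8-/-. Neither passed the test (log2 fold change 0.12 each, FDR 0.334 and 0.335), and with 1 library left out the values ranged from 0.073 to 0.16 and from 0.086 to 0.16.

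The intervals show how small a difference could be seen. The 95% interval of a member reached 0.15 on the log2 scale to each side at the median, and 0.0981 to 0.553 over all members. Of the 63 members that did not pass, 55 had an interval that lay within 0.5 of 0. An interval within 0.25 of 0 was reached by 21 of all members.

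Unique counting leaves out reads that align to more than 1 place. Ribosomal protein genes were examined for this with the transcripts of the reference annotation (GENCODE M21, GRCm38). In the last 300 bases of the longest coding transcript, where 3′ libraries have their reads, each 100-base window (the read length) was searched in the transcripts of all other genes. At least 1 window was copied in 39 of the 76 members, against 1.67% of 13142 other coding genes. More than 50% of the windows were copied in 22 members, or 28.9%, against 72 of the other genes, or 0.548%. Near-identical copies, with at least 95% identity over at least 200 of these bases, were found for 37 members, 347 copies in all. Of these 329 are annotated as pseudogenes, and 21 had a line of their own in the count files. Copies outside annotated transcripts were not searched, and the shares depend on the transcript and the length of its end that are taken: in the last 150 bases, 10 members had more than 50% of the windows copied.

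The 3′ untranslated regions (UTRs) of the members were short, with a median of 94.5 bases against 1205 bases in the other coding genes. Members with a UTR under 100 bases numbered 40, and in these a read of full length from the 3′ end reaches into coding sequence. With principal transcripts in place of the longest ones, a choice made after the data were seen, 24 members had more than 50% of windows copied.

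Every window was copied in Rpl10, Rpl36a and Rps27, followed by Rpl35 (95.02%) and Rps12 (93.5%), on both the longest and the principal transcripts. These genes were not the least counted, by CPM or per kilobase. Rps27 still received 174 CPM on average and Rps12 724 CPM, and their values stand for the reads that the authors' aligner placed once. None of these 5 genes passed the test, with log2 fold changes of 0.16 for Rps27 (164 ± 12.8 and 183 ± 21.2 CPM, FDR 0.441, 0.092 to 0.21 with 1 library left out) and -0.17 for Rpl35 (190 ± 17.6 and 169 ± 10.5 CPM, FDR 0.374). Other members depended on the transcript, with 1.49% on the longest and 100% on the principal one for Rpl9, and 0% and 76.1% for Rps13. Of the members called, 7 had no copied window on the longest transcript, among them Rpl11, Rpl14, Rps14, Rps15a, Rps19 and Rps20, and 6 had none on the principal transcript, where Rps19 had 26.9%. Rpl24 had 76.6%, Rpl3 70.6%, Rplp1 33.8%, Rpl26 31.3% and Rpl34 15.9% (42.8% on the principal transcript). Rpl29 had 87.6% on its longest transcript, which is annotated without a 3′ UTR, and 10.4% on the principal one, with 32 and 2 near-identical copies. The reads lost from Rpl24, Rpl3 and Rpl29 could not be recovered from unique counts.

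**Figure D4:**
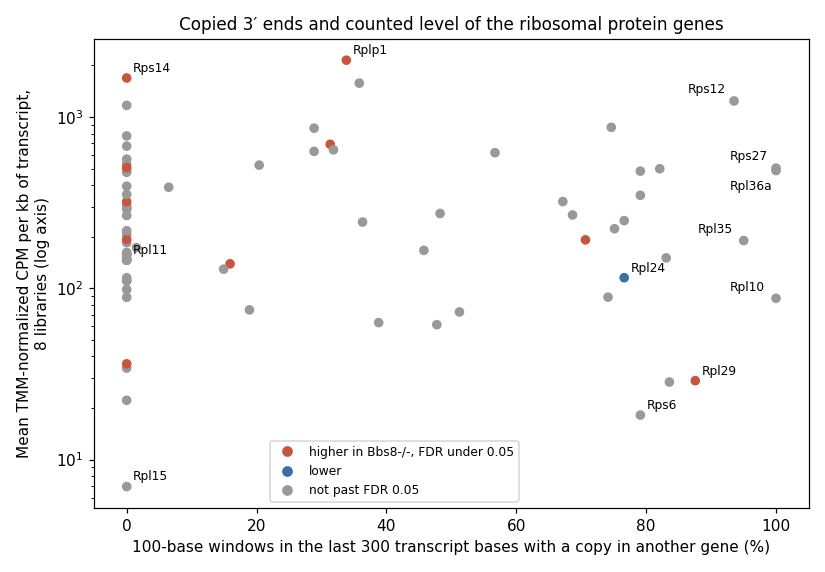
Share of copied 100-base windows in the last 300 transcript bases (x axis, %) against the mean CPM per kilobase of the principal transcript over 8 libraries (y axis, log scale) for the 76 members; colours mark the calls at FDR 0.05. Called genes lie both at 0% and above 70%, and highly counted genes such as Rps12 occur among those that are nearly all copied. The y axis also reflects annotated transcript length, with which 3′ counts need not scale.

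Across the 76 members the copied share had a Spearman correlation of -0.23 with the mean CPM, 0.03 with the CPM per kilobase and -0.21 with the log2 fold change. The value per kilobase depends on annotated lengths, with which 3′ counts need not scale. The median CPM was 262 for members with no copied window and 171 for those with more than 50% copied. These are descriptions over genes that share libraries, not independent points. Of the 37 members with no copied window, 7 were higher and 0 lower, with a median log2 fold change of 0.13. Of the 22 with more than 50% copied, 2 were higher and 1 was lower, with a median of 0.07. On the principal transcripts, 33 members had no copied window (6 higher and 0 lower, median 0.13) and 24 had more than 50% copied (1 higher and 1 lower, median 0.07). By unadjusted p under 0.05 the 37 members held 18 higher and 1 lower, and the 22 held 6 higher and 4 lower.

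The coding ends of Rplp1 and of Gm10073, an intronless gene annotated as protein-coding (chromosome 8, 106572966 to 106573461, GRCm38), show how close such copies are. The last 120 coding bases of both are given 5′ to 3′ from the GENCODE M21 transcripts, with the 3 differing bases in capitals.
Rplp1: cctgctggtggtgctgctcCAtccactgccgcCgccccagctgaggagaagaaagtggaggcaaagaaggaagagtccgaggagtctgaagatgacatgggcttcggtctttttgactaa
Gm10073: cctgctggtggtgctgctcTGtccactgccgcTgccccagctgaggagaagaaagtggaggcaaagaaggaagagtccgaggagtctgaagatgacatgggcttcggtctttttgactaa
A read that lies wholly within identical sequence matches both genes, as 68 of the 201 windows of Rplp1 do. Gm10073, named after its values were seen, was counted at 6.90, 11.0, 21.5 and 8.74 CPM in Bbs8+/+ and 35.8, 23.5, 32.2 and 25.7 CPM in Bbs8-/-. It was higher in every Bbs8-/- library, with a log2 fold change of 1.30 ± 0.236 (edgeR FDR 4.11e-05), the same direction as Rplp1.

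Rps27 and Rps27rt, an intronless gene on chromosome 9 (114982366 to 114982739), are closer still: the last 120 coding bases are the same in both.
Rps27: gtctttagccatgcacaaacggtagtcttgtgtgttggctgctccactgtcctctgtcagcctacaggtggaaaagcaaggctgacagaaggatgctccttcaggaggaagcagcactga
Rps27rt was counted at 3 to 15 reads a library, and its log2 fold change was 0.02 (95% interval -1.12 to 1.15). Among other tested genes that share windows with members, Rpl10-ps3 (0.47, FDR 0.518), Gm2000 with Rpl35 (0.27, FDR 0.801), Gm10076 with Rpl41 (0.39, FDR 0.513), Gm11361 with Rps18 (-0.94, FDR 0.407), Gm10269 (1.21, FDR 0.627, 0 to 6 reads a library) and Rpl9-ps6 (0.50, FDR 0.899, 0 to 3 reads) did not pass the threshold. Med21, which shares windows with Rps26, did not pass either (-0.49, unadjusted p = 0.0277, edgeR FDR 0.306). Uimc1, which shares 95 windows with the longest transcript of Rpl29, had a log2 fold change of 0.06 (FDR 0.919).

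Whether the loss of reads differed between genotypes was asked of the alignments that were not unique. In Bbs8+/+ they were 26.13% ± 0.0789 of all alignments and in Bbs8-/- 25.98% ± 0.459, with overlapping groups (exact permutation test, two-sided, p = 0.571; the smallest p that 4 against 4 libraries allow is 0.0286). As a share of gene counts plus these alignments the direction turned, with 38.3% ± 0.216 and 38.8% ± 0.565 (exact permutation test, two-sided, p = 0.143). The files do not say which genes these alignments belong to.

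The annotated starts of the members were examined for the TOP tract in RefSeq promoter windows (GRCm38.p6, 250 bases before to 50 bases after the start), which held 56 of the 76 members. A run of at least 5 pyrimidines that began with C within 5 bases of the start was found in 26 of 56 members (46.4%) and in 18.4% of 26969 other promoters, and a run of at least 8 in 32.1% and 4.33%. Of 7 called members with a window 3 held the shorter tract, and of 49 that were not called 23 did. The 30 bases around the start (10 before it and 20 from it on, 5′ to 3′ on the strand of the gene) are shown for the 7 called members to compare them, with the tract in capitals where it has at least 5 bases.
Rpl11 (chr4:136053374-136053403, minus strand): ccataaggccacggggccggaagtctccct
Rpl14 (chr9:120571507-120571536, plus strand): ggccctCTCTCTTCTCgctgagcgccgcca
Rpl24 (chr16:55966265-55966294, plus strand): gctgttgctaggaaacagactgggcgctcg
Rpl26 (chr11:68901556-68901585, plus strand): ggcaacttacagaaccggaagtcgcgtgta
Rpl34 (chr3:130730379-130730408, minus strand): tccctgacgtaCTTCCTgtccggcgccgtc
Rps15a (chr7:118116128-118116157, minus strand): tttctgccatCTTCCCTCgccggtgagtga
Rps19 (chr7:24884582-24884611, plus strand): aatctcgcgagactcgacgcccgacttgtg
The annotated start can differ from the start used in the tissue, and a tract more than 5 bases from the annotated start is out of reach of this search. Rpl14, Rpl34 and Rps15a held the tract, and Rpl11, Rpl24, Rpl26 and Rps19 did not at the annotated start. Of the motifs searched on both strands of the whole window, the ETS core CCGGAAGT was found in 19.6% of the members and 3.97% of the other promoters, and it lies in the 30 bases shown for Rpl11 and Rpl26. The YY1 core AAGATGGCG was found in 5.36% and 1.49%, TATAA in 26.8% and 25.5%, and the E-box CACGTG in 8.93% and 7.24%. These are matches of letters and not measured binding sites.

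Ribosomal proteins outside the symbol rule gave 1 gene higher and 0 lower of 11 tested (13 listed), with a median log2 fold change of -0.08. The 12 of them with a line in the count files summed to 1029 ± 61.3 and 1141 ± 13.2 CPM, without overlap (ratio 1.11, against 1.12 for the members). By unadjusted p under 0.05, 3 were higher and 1 was lower. Fau, a fusion that yields a small subunit protein, was at 206 and 242 CPM (0.23, FDR 0.0966), and Rack1, a scaffold on the small subunit head, at 302 and 346 CPM (0.20, FDR 0.105). Rps3a1 was at 41.8 and 29.0 CPM (-0.52, FDR 0.0909). The paralogs Rpl3l (-0.51, at 4.41 to 6.12 CPM), Rpl22l1 (-0.23), Rpl39l (-0.15), Rps27l (-0.11), Rpl7l1 (-0.08) and Rpl36al (0.02) had FDR values of 0.587 or more.

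No gene listed for ribosome biogenesis or for the mitochondrial ribosome passed the test. Of 35 ribosome biogenesis genes, 0 passed the test in either direction (3 higher and 2 lower by unadjusted p under 0.05), and their median log2 fold change was -0.01. The 3 with the largest values were Nhp2 (1.11, FDR 0.0640), Nob1 (-0.85, FDR 0.359) and Utp20 (0.63, FDR 0.182), at 4.45 to 20.9 CPM on average. Of 76 tested mitochondrial ribosomal proteins, which are encoded in the nucleus and build the separate ribosome of the mitochondrion, 0 passed (7 higher and 1 lower by unadjusted p under 0.05), with a median of 0.06. Mrps18b (-0.82), Mrpl46 (0.62) and Mrps27 (0.62) had the largest values, with FDR values of 0.703, 0.230 and 0.615. In Bbs8+/+ the 35 biogenesis genes summed to 2220 CPM and the 78 listed mitochondrial ribosomal genes to 1816 CPM, against 18900 CPM for the 76 members. A difference of a given size is harder to call at such lower counts. The difference between these lists and the members was not tested.

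**Figure D5:**
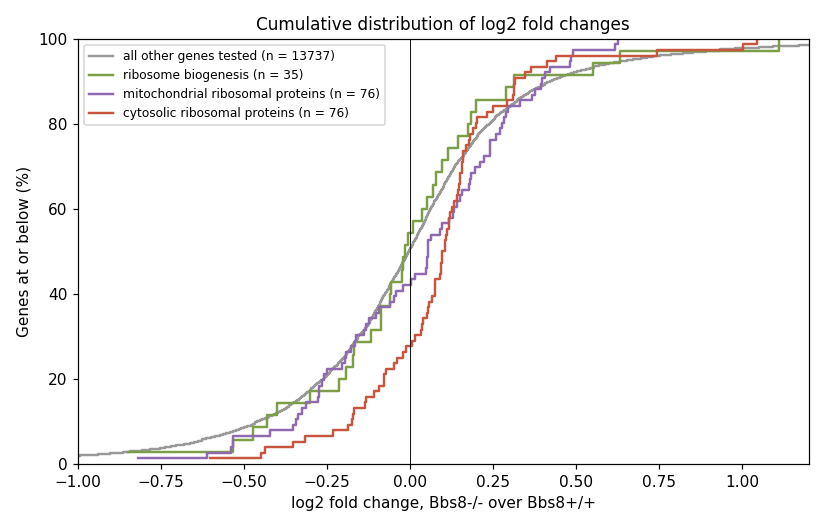
Share of genes (y axis, %) at or below each log2 fold change (x axis, Bbs8-/- over Bbs8+/+) for the 76 cytosolic ribosomal proteins, 76 mitochondrial ribosomal proteins, 35 ribosome biogenesis genes and 13737 other genes; values outside the axis range are not drawn. The curve of the cytosolic ribosomal proteins lies to the right of that of the other genes at the lower quartile (-0.03) and the median (0.10), rises steeply between 0 and 0.25, and has crossed it by the upper quartile (0.17, against 0.18 over all tested genes).

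Of 15 tested other translation genes with TOP mRNAs, 1 was higher and 2 were lower, with a median log2 fold change of 0.02. Eef1b2, a subunit of the exchange factor of elongation factor 1, rose from 239 to 297 CPM (0.32, edgeR FDR 0.00226). Pabpc1, the poly(A) binding protein, fell from 448 to 377 CPM (-0.25, FDR 0.00881), and Tpt1, the translationally controlled tumour protein, from 247 to 199 CPM (-0.32, FDR 0.00576). Of 15 genes of the mTORC1-Larp1 axis, 0 were higher and 1 was lower, with a median of 0.11. This was Eif4ebp2, a repressor of cap-dependent initiation that mTORC1 inactivates, at 97.7 and 73.0 CPM (-0.42, FDR 0.0187).

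Markers of other cell types of the eye moved with genotype in the same libraries. Lens markers summed to 36.6 to 51.0 CPM in Bbs8+/+ and 253 to 287 CPM in Bbs8-/-, and 3 of 6 were higher at FDR 0.05 (Cryaa 3.00, Cryba1 2.74 and Crygb 3.68 on the log2 scale). Fibroblast markers summed to 34196 to 35947 and 26817 to 28003 CPM, with 3 of 6 lower, the abundant collagen genes Col1a1 (-0.42), Col1a2 (-0.55) and Col3a1 (-0.21), and 2 of 6 with a positive log2 fold change (up to 0.12, 1 higher by unadjusted p under 0.05). Pigment cell markers summed to 13849 to 14508 and 11518 to 12037 CPM, with 5 of 6 lower (Tyrp1 -0.56, Mlana -0.47, Mitf -0.36, Dct -0.25 and Pmel -0.25). Photoreceptor markers summed to 359 to 407 and 246 to 310 CPM, with 2 of 6 lower, among them Gnat1 (-0.86). By unadjusted p under 0.05, 3 were lower and 1 was higher (0.51).

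Macrophage markers summed to 325 to 354 and 392 to 437 CPM, with Csf1r (0.28) higher. Erythroid markers summed to 5161 to 5730 and 5640 to 6498 CPM, with Hba-a1 (0.21) and Hba-a2 (0.17) higher. Surface epithelium markers summed to 5.94 to 14.0 and 0 to 0.607 CPM, and Krt15 was the 1 of 4 that was tested and was lower. RPE markers summed to 16575 to 17595 and 17783 to 18088 CPM, with 0 of 8 past the threshold (2 higher and 1 lower by unadjusted p under 0.05) and the largest values for Best1 (1.57, with 0 to 10 counts a library), Rpe65 (-0.13) and Rlbp1 (0.12). Skeletal muscle markers (Myl1 0.18, Ckm -0.14, Acta1 0.13) and endothelium markers (Cdh5 -0.31, Tek 0.19, Kdr 0.12) had 0 past the threshold, with 0 and 1 at an unadjusted p under 0.05. Of all markers listed, Krt14 alone was at 0 in every library. The part of these cell types in the ribosomal protein values was not tested.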

How the data were processed

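QuantSeq 3′ mRNA sequencing had been performed on 8 eyecup libraries. The authors trimmed reads with BBDuk, aligned them with STAR to mm10 and counted unique alignments per gene with htseq-count, and the deposited values are raw counts per gene. The strand setting is not given in the sources used here. No molecular identifiers were named, so floors cover counting error only. The authors' filter on multi-mapped reads was not applied.

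From these counts, genes that reached 1 CPM in 4 or more libraries (13813 genes) were tested with edgeR 4.0.16 in R 4.3.3, by the quasi-likelihood test with TMM factors and genotype as the only term. Tests were two-sided with Benjamini-Hochberg adjustment and FDR 0.05, and were tested on simulated data. Intervals are 95% intervals. Symbols came from GENCODE M21, which held 31011 of 31053 identifiers. No whole genome sequence was searched for copies, which were sought in transcripts only. Members and gene lists were chosen with earlier results of these data known, and no test was made over a list. Genes named were Ttc8, members past FDR 0.05, the 5 members with the highest and the 5 with the lowest log2 fold change, the 5 with the highest CPM, the 5 with the largest copied share, stalk genes, Rpsa, X-linked members, and, of each list, genes past FDR 0.05 or else the 3 with the largest values.

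Alternatives were RLE factors, library totals, TMM without members, leaving out Gm42418, the most counted gene, and mitochondrial genes, filterByExpr, no filter, DESeq2 1.42.0, a replicate block, leaving out each library, thinning to the smallest total, FDR 0.01, other window lengths and, chosen after seeing the data, principal transcripts. Counts of libraries of 1 genotype differed by more than sampling noise in every pair. Some genes that met the naming rule are not reported here.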

Additional observations from a re-analysis of the deposited data

Results flagged for a closer look

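Of 62 groups of 4 libraries that were examined, 4 held a library far from the other 3, where chance alone gives about 3.1 (1 in 20). Bbs8-/- replicate 2 was high for Rpl3 (304 CPM, the others 280 to 283) and for Rplp2 (606 CPM, the others 560 to 566). Bbs8-/- replicate 4 was high for Rps20 (881 CPM, the others 756 to 770). Bbs8+/+ replicate 2 was high for Rps12 (731 CPM, the others 681 to 687). Rpl3 and Rps20 stayed past FDR 0.05 with any 1 library left out, with log2 fold changes of 0.27 to 0.40 and 0.26 to 0.34.

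Unique alignments outside annotated genes, which enter no comparison of genes, were 42.6% ± 0.542 of the unique alignments of Bbs8+/+ libraries and 44.3% ± 0.125 of those of Bbs8-/- libraries (mean ± SD, n = 4). They were higher in every Bbs8-/- library (exact permutation test, two-sided, p = 0.0286, the smallest that 4 against 4 libraries allow). The files do not say where these alignments lie.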

How the results depend on the processing

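The count of members higher in Bbs8-/- was 10 to 13 under all refits at FDR 0.05 and 10 at FDR 0.01. In each of 17 refits 10 genes passed, among them Rpl3, Rpl11, Rpl14, Rpl29, Rplp1, Rps14, Rps15a, Rps19 and Rps20, and Rpl26 and Rpl34 were lost in some. The count lower was 0 to 2 with 1 library left out, 2 with no filter on low counts, 2 after thinning and 0 at FDR 0.01, the second gene being Rps2. The median log2 fold change of the members was 0.0855 to 0.132. Replicate numbers did not pair the libraries (correlations of deviations from -0.0773 to 0.00504 over 4916 genes), and the fit with the replicate block gave 11 members higher and 1 lower. The 1 call outside the symbol rule became 0 after thinning and at FDR 0.01 and was 0 to 1 with 1 library left out. Eif4ebp2, the 1 call of the mTORC1-Larp1 axis, became 0 with DESeq2 and at FDR 0.01 and was 0 to 1 with 1 library left out. The 2 lower TOP genes were 1 to 2 with 1 library left out, and the 0 higher biogenesis genes 0 to 1. Among markers, erythroid calls went from 2 to 1 by library totals, no filter, replicate block, DESeq2 and FDR 0.01, macrophage calls from 1 to 0 at FDR 0.01, surface epithelium calls from 1 to 0 with filterByExpr and 2 with no filter, and RPE calls from 0 to 1 without Gm42418 and mitochondrial genes. The causes were not tested.

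With 1 library left out, the log2 fold change of Rplp0 ranged from -0.017 to 0.098, of Rpl39 from -0.048 to 0.093, of Rps4x from -0.056 to 0.025 and of Mrps18b from -1.13 to 0.24. The difference in alignments that were not unique (-0.146 percentage points) became 0.503 as a share of gene counts plus these alignments (exact permutation p = 0.143), and ranged from -0.358 to 0.00455 with 1 library left out.

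Members with more than 50% of windows copied numbered 22, but 35 with 50-base windows, which recur more often by construction, and 10 in the last 150 bases. They were 27 with 75-base windows, 25 in the last 500 bases and 24 with principal transcripts.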

Other observations

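Of the 6 members on chromosome 9, all had a positive log2 fold change (median 0.24) and 3 passed FDR 0.05, Rplp1, Rpl29 and Rpl14, beside Rpl4, Rps25 and Rpsa. Among all 76 members, 55 had a positive value and 12 passed as higher, against 1.1% of all tested genes. This was noticed after the values were seen and was not tested. Ttc8 lies on another chromosome.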
